A study of Mus musculus with 21 samples.

Results

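Positional transcription factors of the mesenchyme were followed through 8 genes, namely the T-box genes Tbx2, Tbx3, Tbx4 and Tbx5, the forkhead gene Foxf1, the basic helix-loop-helix gene Tcf21 and the homeobox genes Meox1 and Meox2. They were chosen by name, with earlier results of these data known, as 8 of the 32285 genes in the count table. All 8 were found there. Shares of called genes among the 8 are therefore set beside those of all genes as a description. Their unique molecular identifiers (UMIs, each standing for 1 captured RNA molecule) were summed per library in stroma and in endothelium of unchallenged mouse lung, lung metastases of melanoma and subcutaneous primary tumors. Stroma means fibroblasts and pericytes here, taken as cells with at least 1 UMI of Col1a2 or Rgs5 and 0 of Ptprc and Pecam1. Endothelium means cells with at least 1 UMI of Pecam1 and 0 of Ptprc, Col1a2 and Rgs5.

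All hosts were mT/mG mice, which carry the Gt(ROSA)26Sor tdTomato and EGFP reporter. No Cre was used, so every host cell expressed tdTomato. Unlabeled MT-ret melanoma fragments were grown under the skin and resected, and lung metastases were collected later, whereas mice with unchallenged lungs received no tumor. Host cells (TME, tumor microenvironment) were sorted as living tdTomato+ or tdTomato+ CD45- cells, malignant melanoma (MM) cells were collected as separate libraries, and all were profiled from the 3′ end on the 10x platform. Libraries labeled 1-3 are 1 sample in the labels, while the metadata give a library name for each of their mice. These names were summed here and count as 1 library. The depth of a class of cells below is its summed UMIs, and levels are CPM, the UMIs of a gene scaled to 1e+06 UMIs of that class in that library.

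T-box factors bind DNA through a shared domain and set positional identity in the embryo. Tbx4 and Tbx5 are known for limb bud identity and for the mesenchyme of the lung bud, Foxf1 and Tcf21 for visceral mesenchyme including that of the lung, and Meox1 and Meox2 for the somites, which form dermis, muscle and axial skeleton. Tbx2 and Tbx3 mostly act as repressors and are expressed in lung mesenchyme and in many other tissues.

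With each 1-3 sample taken as 1 library, there were 16 distinct libraries with 100359 cells. Of these, 12 came from host cells of the 3 tissues, and total depth per library ran from 1777036 to 60339415 UMIs. Another 5 library names held cells and counts identical to a kept one and were counted once. One of these pairs is metastasis TME replicate 6 and metastasis MM replicate 6, so which of the sorts that library holds cannot be told from the labels. Without it, the 4 genes called below for metastasis against primary tumor in stroma were not called, Tbx3, Tbx5 and Meox2 were called for metastasis against unchallenged lung in stroma, and the calls in endothelium were the same genes. Stroma was sparse, with 562 cells from unchallenged lung, 754 from metastases and 1718 from primary tumors. With a minimum of 20 cells per library, 2 metastasis libraries (632 and 112 cells), 3 primary tumor libraries (202, 134 and 1363 cells) and 3 unchallenged lung libraries (48, 140 and 367 cells) could be fitted. Their stroma held between 252777 and 3953755 UMIs. Ranges, orders and overlaps given for stroma cover these 8 libraries unless a smaller one is named. Endothelium gave 4502, 1225 and 358 cells, and all 4 libraries of each tissue were fitted. No 2 kept libraries shared more than 1.09% of their cell barcodes.

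The class labels were checked against marker genes. All 6 fibroblast markers (such as Col1a1 and Dcn) were detected in the stroma of every tissue, at a summed 12571 to 29836 CPM, against 40.0 to 2724 CPM in endothelium. All 7 endothelial markers were detected in endothelium, at 4144 to 10121 CPM, against 47.5 to 526 CPM in stroma. Melanoma markers (such as Dct and Pmel) summed to 6600 to 14134 CPM in metastasis stroma, 1744 to 4860 CPM in primary tumor stroma and 0 to 23.5 CPM in unchallenged lung stroma, where Cited1, Syt4 and Tyrp1 were at 0. Epithelial markers summed to 4065 to 9126 CPM in metastasis stroma, 0 to 12.1 CPM in primary tumor stroma, and 47.5 to 7727 CPM in unchallenged lung stroma. Mesothelial markers (such as Msln) summed to 332 to 355, 2.72 to 25.6 and 186 to 229 CPM. By the melanoma and epithelial sums, the stroma gate also took in RNA of other cell types. Melanoma and mesothelial sums were highest in metastases without overlap, and epithelial sums overlapped between metastases and lung. The part of these markers in the results below was not tested, other than by a tighter gate. That gate, the sum gate, was chosen after the data were seen, and asked for at least 5 UMIs over 9 fibroblast and pericyte genes and 0 of Epcam and Cdh1. It kept 345, 359 and 1561 stroma cells of unchallenged lung, metastases and primary tumors. The stricter gate, which was planned beforehand, kept 286, 19 and 258 stroma cells in the same order, so most metastasis stroma cells failed it. In endothelium the stricter gate kept 3409, 145 and 148 cells.

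In the mouse genome (GRCm38, GENCODE vM21 gene bounds), the T-box genes lie in neighboring pairs. Tbx2 lies at chr11:85832551-85841948 and Tbx4 at chr11:85886422-85916097, both on the plus strand and 44.5 kb apart. Tbx3 lies at chr5:119670669-119684724 and Tbx5 at chr5:119832668-119885219, both on the plus strand and 147.9 kb apart. Foxf1 lies at chr8:121084386-121088144 on the plus strand and Tcf21 at chr10:22817281-22820174 on the minus strand. Meox1 lies at chr11:101877510-101894374 on the minus strand and Meox2 at chr12:37108540-37179534 on the plus strand.

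RefSeq promoters (GRCm38.p6, 250 bases before the start site and 50 after it) were at hand for 3 of the 8 genes, and are shown because each of these was called between lung and primary tumor in stroma or endothelium. They are Tcf21 (chr10:22820094-22820393, minus strand), Tbx4 (chr11:85896515-85896814, plus strand, an internal start downstream of the GENCODE bound) and Meox2 (chr12:37108290-37108589, plus strand). Capitals mark the matches to 5 motifs searched on both strands, namely the T-box motif AGGTGT, the forkhead motif TGTTTA, the E-box CAGCTG, the homeodomain motif TAATTA and the TATA box TATAAA, which did not overlap in these windows.
Tcf21: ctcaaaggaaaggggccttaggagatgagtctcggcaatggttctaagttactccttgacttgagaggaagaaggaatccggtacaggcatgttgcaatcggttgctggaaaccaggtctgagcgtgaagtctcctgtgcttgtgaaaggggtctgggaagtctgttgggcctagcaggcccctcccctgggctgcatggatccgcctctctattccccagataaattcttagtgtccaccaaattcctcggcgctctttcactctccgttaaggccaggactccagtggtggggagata
Tbx4: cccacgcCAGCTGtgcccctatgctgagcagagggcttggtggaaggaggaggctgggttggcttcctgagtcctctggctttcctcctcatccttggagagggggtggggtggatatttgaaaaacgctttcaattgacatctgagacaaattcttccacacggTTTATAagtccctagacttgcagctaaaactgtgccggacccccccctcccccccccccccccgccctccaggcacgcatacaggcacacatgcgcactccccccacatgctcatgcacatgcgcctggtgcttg
Meox2: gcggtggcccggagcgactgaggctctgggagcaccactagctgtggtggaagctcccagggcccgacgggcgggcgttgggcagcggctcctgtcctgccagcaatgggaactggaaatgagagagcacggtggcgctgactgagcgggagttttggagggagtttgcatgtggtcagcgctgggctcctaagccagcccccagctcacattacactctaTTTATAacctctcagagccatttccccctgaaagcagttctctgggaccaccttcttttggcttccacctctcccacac
The Tbx4 window held an E-box 243 bases before the start and a TATA box letter run on the minus strand 85 bases before it. The Meox2 window held 1 TATA box run on the minus strand, 29 bases before the start. The Tcf21 window held none of the 5. Among 32851 promoters of this length, 16.3% held the E-box, 13.6% the TATA box, 13.7% the T-box motif, 13.4% the forkhead motif and 5.29% the homeodomain motif. Matches of these lengths are common and are given as a description of the letters only.

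Primary tumor stroma against unchallenged lung stroma sets connective tissue cells of a tumor under the skin beside those of a tumor-free lung, so organ and tumor cannot be told apart in it. Tbx4, Tbx5, Tcf21 and Foxf1 were lower in primary tumor stroma, and Meox1 was higher. With edgeR's quasi-likelihood test and Benjamini-Hochberg adjustment over all genes, these 5 of the 8 genes passed an adjusted p of 0.05, 4 lower and 1 higher, against 14.4% of all 10356 genes tested. The 4 lower genes did not pass the filter on low counts through primary tumors, so they could only be called lower. Meox1 did not pass it through lung, so it could only be called higher. For Foxf1 the lung level was no higher than in leukocytes, as given below. The median log2 fold change was -2.43 over the 8 genes and -0.01 over all genes. The 5 calls remained under each of the 8 removals of 1 library. They also remained within run 3 of the metadata, which do not say what a run is.

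Tbx4, which takes part in lung bud branching and hindlimb identity, was at 253, 67.9 and 60.9 CPM (64, 56 and 44 UMIs) in unchallenged lung replicates 4, 5 and 6. In primary tumor stroma it was at 0 UMIs in replicates 4 and 5 and at 0.253 CPM (1 UMI) in replicate 6. All lung libraries lay far above all primary tumor libraries, with lung replicate 4, the one with the fewest cells, the highest. The pooled level was 531.6-fold lower in primary tumors (95% counting interval 94.1 to 21123, which covers counting error only), with an adjusted p of 0.000985 by edgeR. Without primary tumor replicate 6, which held the single UMI, it was at least 57.1-fold lower. A summed level of this kind does not tell fewer expressing cells apart from less RNA per cell.

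Tbx5, the T-box factor of forelimb, heart and lung mesenchyme, was at 158, 76.4 and 62.3 CPM (40, 63 and 45 UMIs) in unchallenged lung replicates 4, 5 and 6. Primary tumor stroma held 0, 0 and 3 UMIs in replicates 4, 5 and 6, the last at 0.759 CPM. The order of libraries was the same as for its paralog Tbx4, with no overlap between the tissues. The pooled level was 160-fold lower in primary tumors (counting interval 53.7 to 784), with an adjusted p of 0.000673 by edgeR, and at least 51.5-fold lower without primary tumor replicate 6.

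Tcf21, known from lung and kidney mesenchyme and from lipid-storing lung fibroblasts, was at 653, 116 and 70.6 CPM (165, 96 and 51 UMIs) in unchallenged lung replicates 4, 5 and 6. Not 1 UMI was found in 1699 stroma cells of 3 primary tumor libraries. The lung libraries spread widely, with a mean ± SD of 279.9 ± 323.7 CPM (n = 3), while the primary tumor libraries were all at 0. Against the floor of 3 counts over the pooled primary tumor libraries, Tcf21 was at least 337-fold lower there, with an adjusted p of 0.00461 by edgeR. The bound was 185-fold without lung replicate 4 and 109-fold without primary tumor replicate 6.

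Foxf1, a Hedgehog-responsive factor of visceral mesenchyme and lung vessels, was at 35.6, 37.6 and 34.6 CPM in unchallenged lung replicates 4, 5 and 6. It was at 3.49, 1.36 and 4.05 CPM in primary tumor replicates 4, 5 and 6. The tissues did not overlap in these libraries. The log2 fold change was -3.34 ± 0.45 (SE, edgeR adjusted p = 0.00214). Ptprc-positive leukocytes of the same 3 lung replicates, which should lack Foxf1, held 107, 38.9 and 40.0 CPM of it. The level in lung stroma was at or below that of those cells in each replicate, so it is not read as expression by the stroma, and the source of these UMIs was not tested.

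Meox1, a homeobox factor of the somite, gave the opposite picture. It was at 109, 96.5 and 102 CPM (125, 71 and 403 UMIs) in primary tumor replicates 4, 5 and 6, and at 7.91 CPM (2 UMIs), 0 and 0 in unchallenged lung replicates 4, 5 and 6. The mean ± SD of these primary tumor libraries was 102.5 ± 6.36 CPM (n = 3), and all 3 lay above lung. Primary tumor replicate 1-3, whose 19 stroma cells were 1 too few for the fit, held 0 UMIs of Meox1 in 80566, which allows up to 37.2 CPM (3 counts), below the fitted primary tumors. The pooled level was 92.4-fold higher in primary tumors (counting interval 25.5 to 765), with an adjusted p of 0.00216 by edgeR. It was at least 53.0-fold higher without lung replicate 4, and 50.1-fold and 55.3-fold higher without lung replicates 5 and 6.

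Meox2, its paralog of somite and limb muscle, was at 121, 80.2 and 89.8 CPM in primary tumor replicates 4, 5 and 6 and at 123, 166 and 90.0 CPM in unchallenged lung replicates 4, 5 and 6. The tissues overlapped, and the log2 fold change was -0.31 ± 0.35 (SE, edgeR adjusted p = 0.620). The small primary tumor replicate 1-3 held 4 UMIs of Meox2 (49.6 CPM), and the 7 stroma cells of lung replicate 1 held 0 of Meox2 and Meox1 in 32029 UMIs. In lung Ptprc-positive cells Meox2 was at 0 to 4.92 CPM and Meox1 at 1.71 to 3.25 CPM.

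Tbx2 was at 78.6, 84.3 and 95.1 CPM in primary tumor replicates 4, 5 and 6 and at 554, 152 and 119 CPM in unchallenged lung replicates 4, 5 and 6. Tbx3 was at 24.5, 17.7 and 46.3 CPM in the primary tumors and at 87.0, 49.7 and 70.6 CPM in the lungs. The fitted lung libraries lay above the fitted primary tumor libraries for both genes, with lung replicate 6 the lowest lung library for Tbx2 and lung replicate 5 for Tbx3. Ptprc-positive cells of lung replicates 4, 5 and 6 held Tbx3 at 57.0, 50.6 and 66.5 CPM, about the level of lung stroma, and Tbx2 at 7.67 to 22.3 CPM over the 4 lung libraries. The log2 fold changes were -1.53 ± 0.53 for Tbx2 and -1.04 ± 0.39 for Tbx3 (SE, edgeR adjusted p = 0.0811 and 0.104), so neither was called. Tbx2 passed in 5 of 16 alternatives, which were without lung replicate 6 (log2 fold change -1.91, adjusted p = 0.0296), under the sum gate (0.0255) and the stricter gate (0.00731), with DESeq2 (0.0258) and with no filter (0.00279). Tbx3 passed with the replicate number as a block (-1.15, adjusted p = 0.0457).

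In the small libraries the tissues overlapped for Tbx3, at 62.1 CPM (5 UMIs) in primary tumor replicate 1-3 and 31.2 CPM (1 UMI) in lung replicate 1. Tbx2 was at 37.2 CPM (3 UMIs) and 219 CPM (7 UMIs) in them. Foxf1 was at 12.4 CPM (1 UMI) and 125 CPM (4 UMIs). Primary tumor replicate 1-3 held 0 UMIs of Tbx4, Tbx5 and Tcf21, and lung replicate 1 held 5, 1 and 5 UMIs of them (156, 31.2 and 156 CPM).

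**Figure D1:**
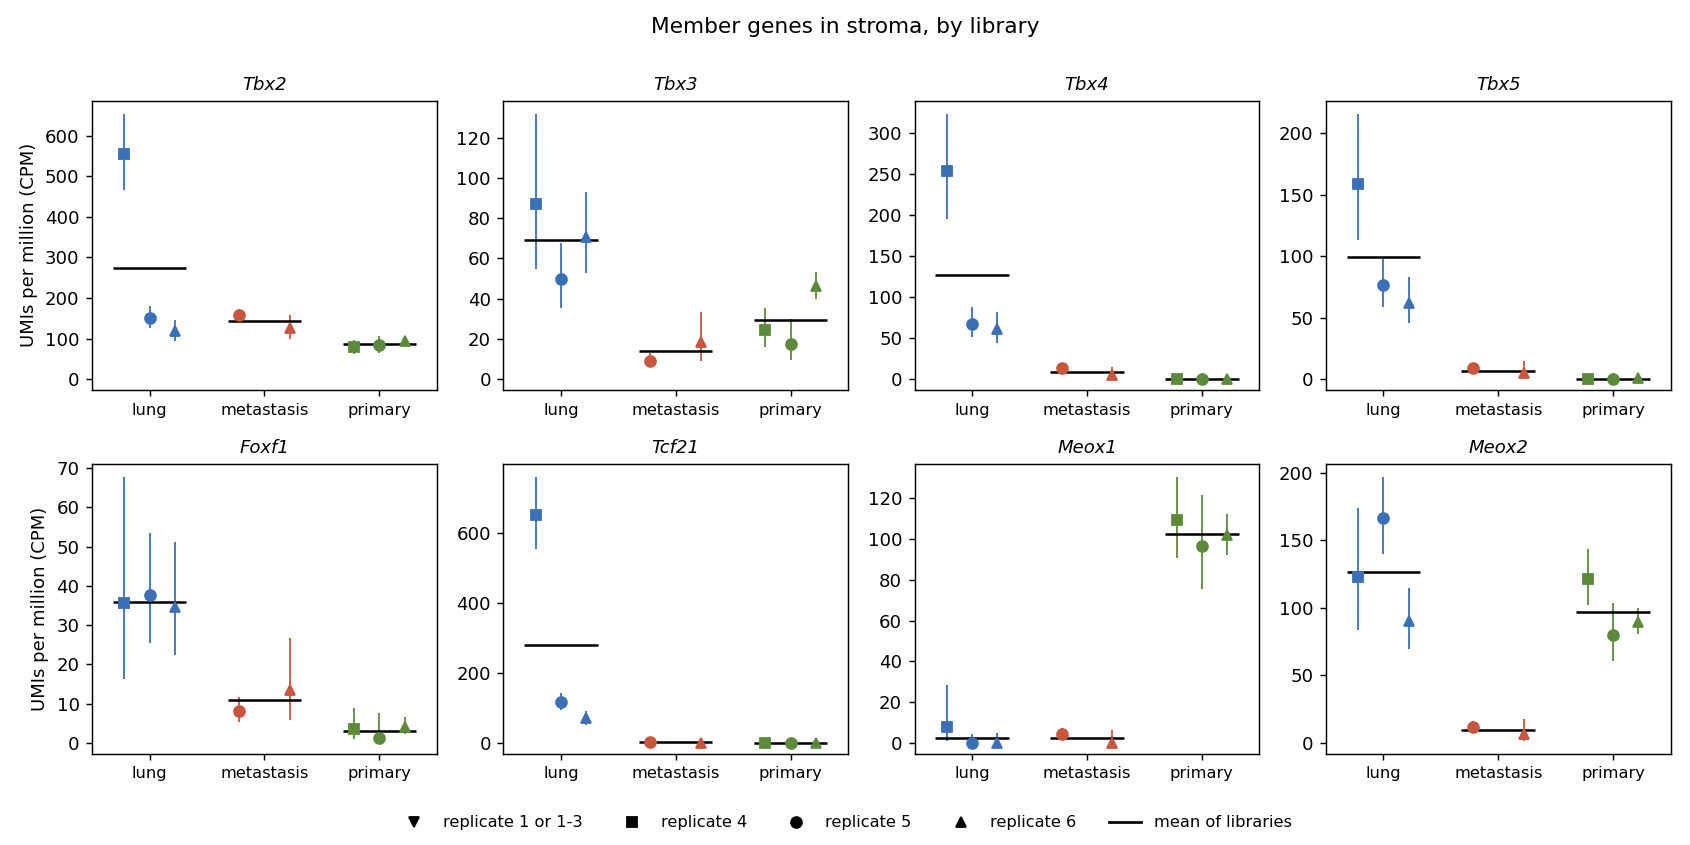
Level of the 8 genes in stroma, in CPM, for each library with at least 20 stroma cells of unchallenged lung, lung metastasis and primary tumor; points are libraries with 95% counting intervals and bars are the mean of libraries. Tbx4, Tbx5 and Tcf21 are at 0 to 0.759 CPM in every primary tumor library shown, Meox1 lies between 96.5 and 109 CPM there, and the 2 metastasis libraries lie between the other tissues for Tbx4 and Tbx5 but below both for Meox2.

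Lung metastasis stroma against primary tumor stroma compares the host stroma of MT-ret melanoma at 2 sites. By the study's own account some non-tumor lung was taken along with the metastases, so stroma of the tumor and of the lung beside it cannot be told apart here. Tbx4 and Tbx5 were higher in metastases and Meox1 and Meox2 were lower. These 4 of 8 genes passed (edgeR, adjusted p below 0.05), 2 in either direction, against 1.96% of the 10356 genes tested. All 4 passed under the sum gate and within run 3, in which the metadata give replicates 5 and 6 of either tumor the same mouse numbers. None of the 8 was called when primary tumor replicate 6 was left out. Leaving out metastasis replicate 5 or 6 leaves only the other metastasis library. Without metastasis replicate 6 the log2 fold changes of Tbx4, Tbx5, Meox1 and Meox2 were 5.85, 4.05, -4.50 and -3.02. With all libraries they were 5.51, 3.87, -4.82 and -3.20. How many of all genes are called in fits with a library left out is not given here.

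Tbx4 was at 14.1 CPM (47 UMIs) in metastasis replicate 5 and at 5.11 CPM (3 UMIs) in replicate 6. Tbx5 was at 9.31 CPM (31 UMIs) and 5.11 CPM (3 UMIs) in the same libraries. Both metastasis libraries lay above every primary tumor library for either gene, although the values of replicate 6 rest on 3 UMIs. The pooled level of Tbx4 was 74.5-fold higher than in primary tumors (counting interval 12.8 to 2999, edgeR adjusted p = 0.0417) and that of Tbx5 16.9-fold higher (5.31 to 85.9, edgeR adjusted p = 0.0410). Neither gene was called without primary tumor replicate 4, 5 or 6 or lung replicate 5, nor with only 1 metastasis library left. Both passed within run 3 alone, which holds no replicate 4. Pooled without metastasis replicate 6 the folds were 82.3 and 18.1, and without primary tumor replicate 6 they were at least 8.002 and 5.441. Without metastasis replicate 5 no fold is given, since 3 UMIs of either gene then stand against 1 of Tbx4 and 3 of Tbx5 in primary tumors.

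Tcf21 was at 4.20 CPM (14 UMIs) in metastasis replicate 5 and at 0 in replicate 6. Pooled, it was at least 6.95-fold higher than in primary tumors (at least 8.18-fold without metastasis replicate 6 and 2.24-fold without primary tumor replicate 6, with both tissues at 0 without metastasis replicate 5), but it did not pass (edgeR adjusted p = 0.339). Foxf1 was at 8.11 and 13.6 CPM in metastasis replicates 5 and 6, above the 3 primary tumor libraries without overlap, and also did not pass (log2 fold change 1.59 ± 0.49, SE, edgeR adjusted p = 0.152, and 1.27 without metastasis replicate 6).

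Meox1 was at 4.50 CPM (15 UMIs) in metastasis replicate 5 and at 0 in replicate 6, against 96.5 to 109 CPM in the 3 fitted primary tumor libraries. The 15 UMIs came from 6 cells. Both metastasis libraries lay far below these and within the range of lung. Meox1 passed the filter on low counts through primary tumors only, so it could only be called lower in metastases. The log2 fold change against primary tumors was -4.82 ± 0.75 (SE, edgeR adjusted p = 0.0162). Without metastasis replicate 6 or primary tumor replicate 6 it was -4.50 and -4.85 (adjusted p = 0.0804 and 0.0702). Without metastasis replicate 5, which leaves 1 metastasis library at 0 UMIs, the adjusted p was 0.113 and the pooled level was at least 20.1-fold lower.

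Meox2 was at 12.0 CPM (40 UMIs) in metastasis replicate 5 and at 6.81 CPM (4 UMIs) in replicate 6, below every fitted primary tumor and lung library. The log2 fold change was -3.20 ± 0.47 (SE, edgeR adjusted p = 0.0149), a pooled level 8.44-fold lower (counting interval 6.20 to 11.8), or 13.9-fold and 7.89-fold lower without metastasis replicates 5 and 6. The adjusted p was 0.113, 0.0859 and 0.0549 without metastasis replicate 5, metastasis replicate 6 and primary tumor replicate 6.

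Tbx2 was at 160 and 126 CPM in metastasis replicates 5 and 6 (532 and 74 UMIs), above the fitted primary tumor libraries, yet the log2 fold change of 0.74 ± 0.57 did not pass (SE, edgeR adjusted p = 0.615). Tbx3 was at 9.01 and 18.7 CPM, and its range overlapped that of primary tumors (log2 fold change -1.31 ± 0.48, SE, edgeR adjusted p = 0.217). Tbx2 was also high in the 4 separately collected MM libraries (cells with 0 UMIs of the 4 gate genes), at 114 to 279 CPM, whereas the other 7 genes were at most at 2.34 CPM there. Melanoma markers were detected in every metastasis stroma cell, and their part in the Tbx2 level of metastasis stroma was not tested. Under the sum gate Tbx2 was at 114 and 62.2 CPM in metastasis replicates 5 and 6.

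Lung metastasis stroma against unchallenged lung stroma compares the stroma of an organ with and without tumor. Tbx3, Tbx4, Tbx5, Tcf21 and Meox2 were lower in metastases and no gene was higher. These 5 of 8 genes passed (edgeR, adjusted p below 0.05), against 7.46% of the 10356 genes tested, and for Tbx3 the lung level itself was about that of Ptprc-positive cells. Tbx5 and Tcf21 passed the filter on low counts through lung only, so they could only be called lower. The median log2 fold change was -2.82 over the 8 genes and 0.02 over all genes. Summed CPM of melanoma markers was above lung in both metastasis libraries, and its part in these differences was not tested apart from the sum gate.

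Tcf21 was 48.5-fold lower in metastases (pooled, counting interval 28.5 to 89.8), with a log2 fold change of -6.21 ± 1.28 (SE, edgeR adjusted p = 0.0289). Tbx4 was 7.14-fold lower (log2 fold change -3.28 ± 0.70, SE, edgeR adjusted p = 0.0239) and Tbx5 9.47-fold lower (-3.42 ± 0.56, adjusted p = 0.00955). Neither of the 2 fitted metastasis libraries reached the lowest lung library for any of the 3 genes. The 2 metastasis libraries with too few stroma cells to be fitted (6 cells in replicate 4 and 4 in replicate 1-3) lay within or above the lung range for Tbx4, at 270 and 90.0 CPM from 9 and 2 UMIs, and within it for Tbx5, at 90.0 CPM each from 3 and 2 UMIs. Replicate 4 was within the lung range for Tcf21 (150 CPM, 5 UMIs), and replicate 1-3 was below it (45.0 CPM, 1 UMI). Leaving out metastasis replicate 5 or 6 ended the call for Tcf21 (adjusted p = 0.187 and 0.106) and Tbx4 (0.120 and 0.0887), leaving out primary tumor replicate 6 that of Tbx4 (0.0505), and leaving out metastasis replicate 5 that of Tbx5 (0.0741). The pooled Tcf21 level was 26.6-fold lower without lung replicate 4, and without metastasis replicate 5 those of Tbx4 and Tbx5 were 17.8-fold and 16.1-fold lower. Without metastasis replicate 6 the folds of Tcf21, Tbx4 and Tbx5 were 41.2, 6.46 and 8.83.

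Meox2 was 11.5-fold lower in metastases than in lung (log2 fold change -3.51 ± 0.47, SE, edgeR adjusted p = 0.00469), the one call of this comparison that was kept under all 8 removals of a library. The pooled fold was 19.0 without metastasis replicate 5 and 10.8 without replicate 6. The unfitted metastasis replicate 1-3 was within the lung range for Meox2 (135 CPM, 3 UMIs) and replicate 4 below it (2 UMIs). Tbx3 had a log2 fold change of -2.36 ± 0.49 (SE, edgeR adjusted p = 0.0222), from a lung stroma level about that of lung Ptprc-positive cells, as given above. It did not pass without metastasis replicate 5 (-1.89, adjusted p = 0.217). Under the sum gate 3 genes remained called, Tbx5, Tcf21 and Meox2, and Tbx3 (-1.92, adjusted p = 0.0719) and Tbx4 (-2.44, adjusted p = 0.0532) did not pass.

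Foxf1 had a log2 fold change of -1.74 ± 0.47 (SE, edgeR adjusted p = 0.0526) against lung, with both metastasis libraries below the 3 lung libraries. Tbx2 had -0.79 ± 0.59 (SE, adjusted p = 0.432) and overlapped, with lung replicate 4 above and the other two lung libraries beside the metastases. Its sign turned to 0.14 without lung replicate 4. Meox1 was at 2 UMIs or fewer per lung library and had a log2 fold change of 1.60 ± 1.25 (SE, adjusted p = 0.461).

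**Figure D2:**
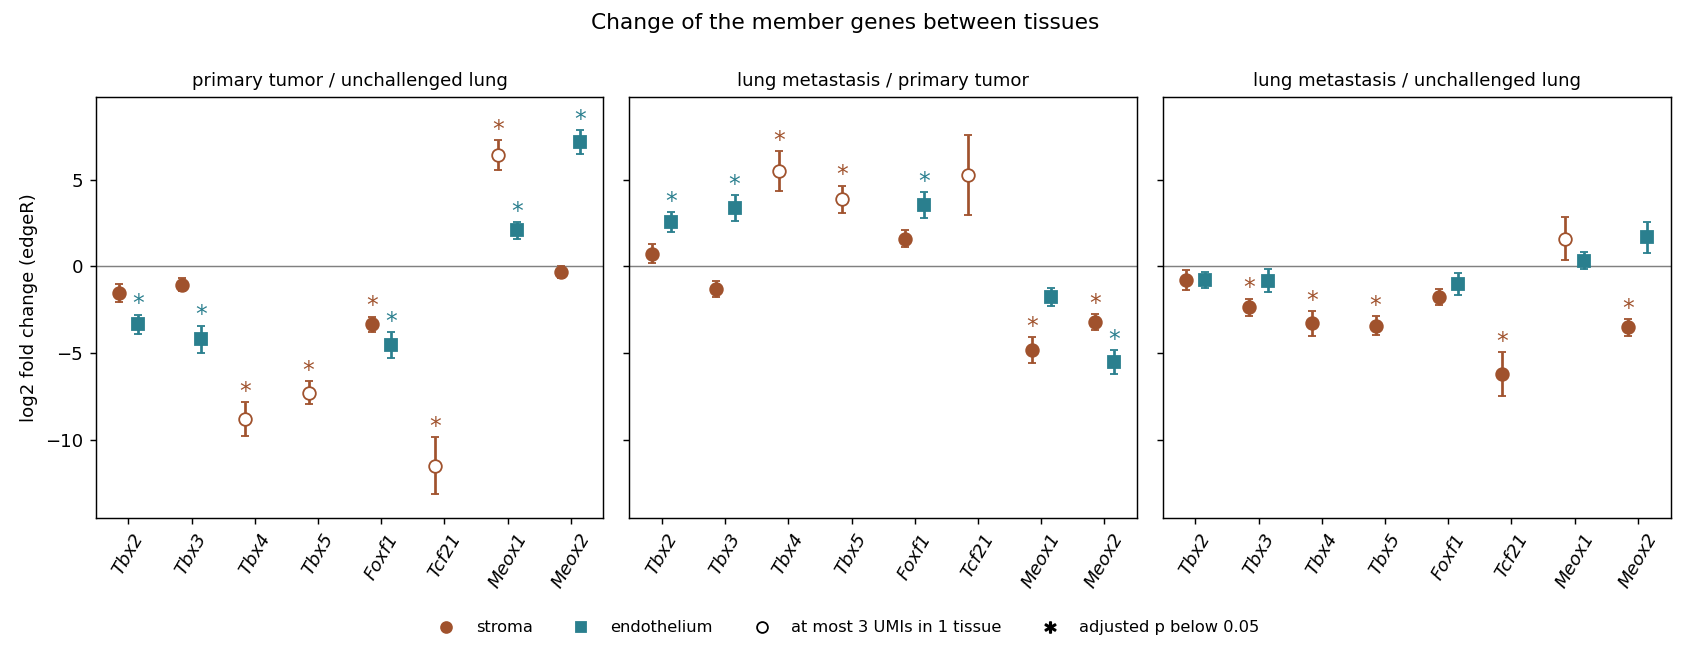
Log2 fold change of the 8 genes in stroma and endothelium for the 3 comparisons of tissues, with bars of 1 SE from the edgeR fit; an asterisk marks an adjusted p below 0.05 and an open symbol marks a gene with at most 3 UMIs in 1 of the tissues, whose fitted value depends on the prior count. In stroma against unchallenged lung, primary tumor has 4 genes called lower and Meox1 called higher, and metastasis has 5 called lower.

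The shares of stroma cells with a UMI were read for Tbx4, Tcf21, Meox1 and Tbx2. After thinning each cell to 1000 UMIs, Tbx4 was seen in 5.10 to 18.2% of unchallenged lung stroma cells, in 0.565 to 1.83% of metastasis stroma cells and in 0 to 0.008% of primary tumor stroma cells (10.4 to 56.2%, 2.68 to 6.17% and 0 to 0.073% without thinning). Ptprc-positive lung cells, which should lack it, gave 0.023 to 0.392% after thinning, and the median depths were 1474 to 5901 UMIs in lung stroma and 1680 to 5191 UMIs in those cells. Tcf21 was seen in 4.70 to 29.2% of lung stroma cells after thinning and in 0 to 0.694% of metastasis stroma cells (8.45 to 56.2% and 0 to 2.06% without thinning), against 0.119 to 0.402% in lung Ptprc-positive cells. The lung shares of both genes were thus above this background in every library, and the metastasis share of Tcf21 in replicate 6 was not, at 0. Meox1 was seen in 7.65 to 8.37% of primary tumor stroma cells after thinning (16.1 to 23.8% without), against 0.054 to 0.312% of Ptprc-positive cells of primary tumor replicates 1-3 and 4. For Tbx2 the shares did not keep the order of the levels, at 6.45 to 8.75% in primary tumors and 8.05 to 43.8% in lung after thinning (17.4 to 24.8% and 13.9 to 83.3% without).

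Endothelium was set beside stroma because Foxf1, Tbx2 and Tbx3 are also known from lung vessels. Tbx4, Tbx5 and Tcf21 had few UMIs in it, with 24, 5 and 12 over 4502 endothelial cells of unchallenged lung and 9, 4 and 5 over 1225 of metastases. In 358 primary tumor endothelial cells they had 0 UMIs. By library, Tbx4 was at 0.73 to 3.15 CPM in lung endothelium and at 0 to 12.6 CPM in metastasis endothelium. The highest of these lay within the 5.11 to 14.1 CPM of metastasis stroma. These 3 genes did not pass the filter on low counts, so 5 of the 8 were tested in endothelium.

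In endothelium of primary tumors against unchallenged lung, all 5 tested genes passed, against 18.5% of 8625 genes tested (edgeR, adjusted p below 0.05). Foxf1, Tbx3 and Tbx2 were lower in primary tumors, and Meox1 and Meox2 were higher. Meox2 passed the filter on low counts through primary tumors only, so it could only be called higher there. All 5 calls remained under each of the 12 removals of 1 library.

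Foxf1 was at 815, 1039, 474 and 250 CPM in unchallenged lung replicates 1, 4, 5 and 6 and at 93.2, 11.0, 11.6 and 11.2 CPM in primary tumor replicates 1-3, 4, 5 and 6. Tbx3 was at 813, 517, 684 and 461 CPM in the same lung libraries and at 120, 7.83, 20.9 and 7.45 CPM in the primary tumors. For both genes the primary tumor library 1-3, with 43 endothelial cells, stood above the other 3 primary tumor libraries but still below every lung library. The log2 fold changes were -4.54 ± 0.77 for Foxf1 and -4.19 ± 0.78 for Tbx3 (SE, edgeR adjusted p = 0.00133 and 0.00230).

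Tbx2 was at 256, 120, 241 and 121 CPM in the lung libraries and at 31.1, 3.13, 9.27 and 31.7 CPM in the primary tumors, without overlap (log2 fold change -3.35 ± 0.57, SE, edgeR adjusted p = 0.00145). Meox1 was at 52.9, 33.6, 19.8 and 11.2 CPM in lung and at 115, 124, 109 and 128 CPM in primary tumors. The primary tumor libraries lay above all lung libraries (log2 fold change 2.09 ± 0.48, SE, edgeR adjusted p = 0.00850).

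Meox2 was at 0, 0.365, 0.421 and 4.05 CPM in endothelium of unchallenged lung replicates 1, 4, 5 and 6 and at 106, 146, 192 and 114 CPM in primary tumor replicates 1-3, 4, 5 and 6. Lung endothelium hardly held it, whereas lung stroma and both compartments of primary tumors did. The pooled level was 167-fold higher in primary tumor endothelium (counting interval 96.0 to 318), with a log2 fold change of 7.19 ± 0.68 (SE, edgeR adjusted p = 6.308e-05). It was 464-fold higher without lung replicate 6. Summed fibroblast markers, which would accompany stroma RNA, were at 368 to 2724 CPM in primary tumor endothelium and at 56.6 to 484 CPM in lung endothelium, and their part in this difference was not tested.

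In metastasis endothelium Tbx3 was at 360, 710, 149 and 183 CPM and Foxf1 at 400, 574, 132 and 172 CPM in metastasis replicates 1-3, 4, 5 and 6. Tbx2 was at 103, 90.1, 160 and 51.1 CPM, Meox2 at 0, 2.10, 2.39 and 6.38 CPM and Meox1 at 40.0, 8.38, 58.4 and 25.5 CPM. For all 8 genes the metastasis and lung ranges overlapped, with replicates 1-3, 5 and 6 below the lung range for Tbx3, replicates 5 and 6 below it for Foxf1, and all but replicate 5 below it for Tbx2.

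None of the 5 tested genes passed between metastasis and lung endothelium, against 1.18% of the 8625 genes tested. No member had an unadjusted p under 0.05 in edgeR, and DESeq2 called none. The log2 fold changes were -0.82 for Tbx3 and -1.01 for Foxf1 (edgeR adjusted p = 0.652 and 0.539). Without lung replicate 6, which held the highest Meox2 level among lung libraries, Meox2 passed (log2 fold change 3.09, adjusted p = 0.0354). A difference that misses the threshold does not show that the levels were alike.

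Between metastasis and primary tumor endothelium, 4 of the 5 tested genes passed, against 5.9% of the 8625 genes tested. Foxf1 (log2 fold change 3.52 ± 0.75, SE, edgeR adjusted p = 0.0145), Tbx3 (3.37 ± 0.77, adjusted p = 0.0198) and Tbx2 (2.56 ± 0.58, adjusted p = 0.0194) were higher in metastases. Meox2 was lower, by -5.52 ± 0.71 (SE, adjusted p = 0.00218), a 49.9-fold lower pooled level, and this call was kept under all 12 removals of a library. Without metastasis replicate 6 the log2 fold changes of Foxf1, Tbx3, Tbx2 and Meox2 were 3.72, 3.57, 2.77 and -5.98, all called. The MM libraries held Tbx2 at 114 to 279 CPM, and the part of melanoma RNA in its endothelial levels was not tested. Every metastasis library lay above every primary tumor library for the 3 higher genes and below for Meox1 and Meox2. Meox2 could only be called lower, since it passed the filter on low counts through primary tumors only.

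Meox1 had a log2 fold change of -1.76 ± 0.51 (SE, edgeR adjusted p = 0.0578), and passed in 6 of 20 alternatives. These were the replicate number as a block (-1.87, adjusted p = 0.0401), DESeq2 (0.0104), the stricter gate (0.0249), and without metastasis replicate 5, lung replicate 1 or lung replicate 6 (0.0170, 0.0429 and 0.0268). Leaving out primary tumor replicate 4, 5 or 6 ended the calls of Tbx3 (adjusted p = 0.0758, 0.0876 and 0.0742) and Foxf1 (0.0668, 0.0700 and 0.0679). Tbx3 was also lost without metastasis replicate 4 (0.0677), and Tbx2 without primary tumor replicate 4 or 5 (0.0627 and 0.0830). Within run 3 Tbx3, Foxf1 and Meox2 passed and Tbx2 did not (2.37, adjusted p = 0.194).

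**Figure D3:**
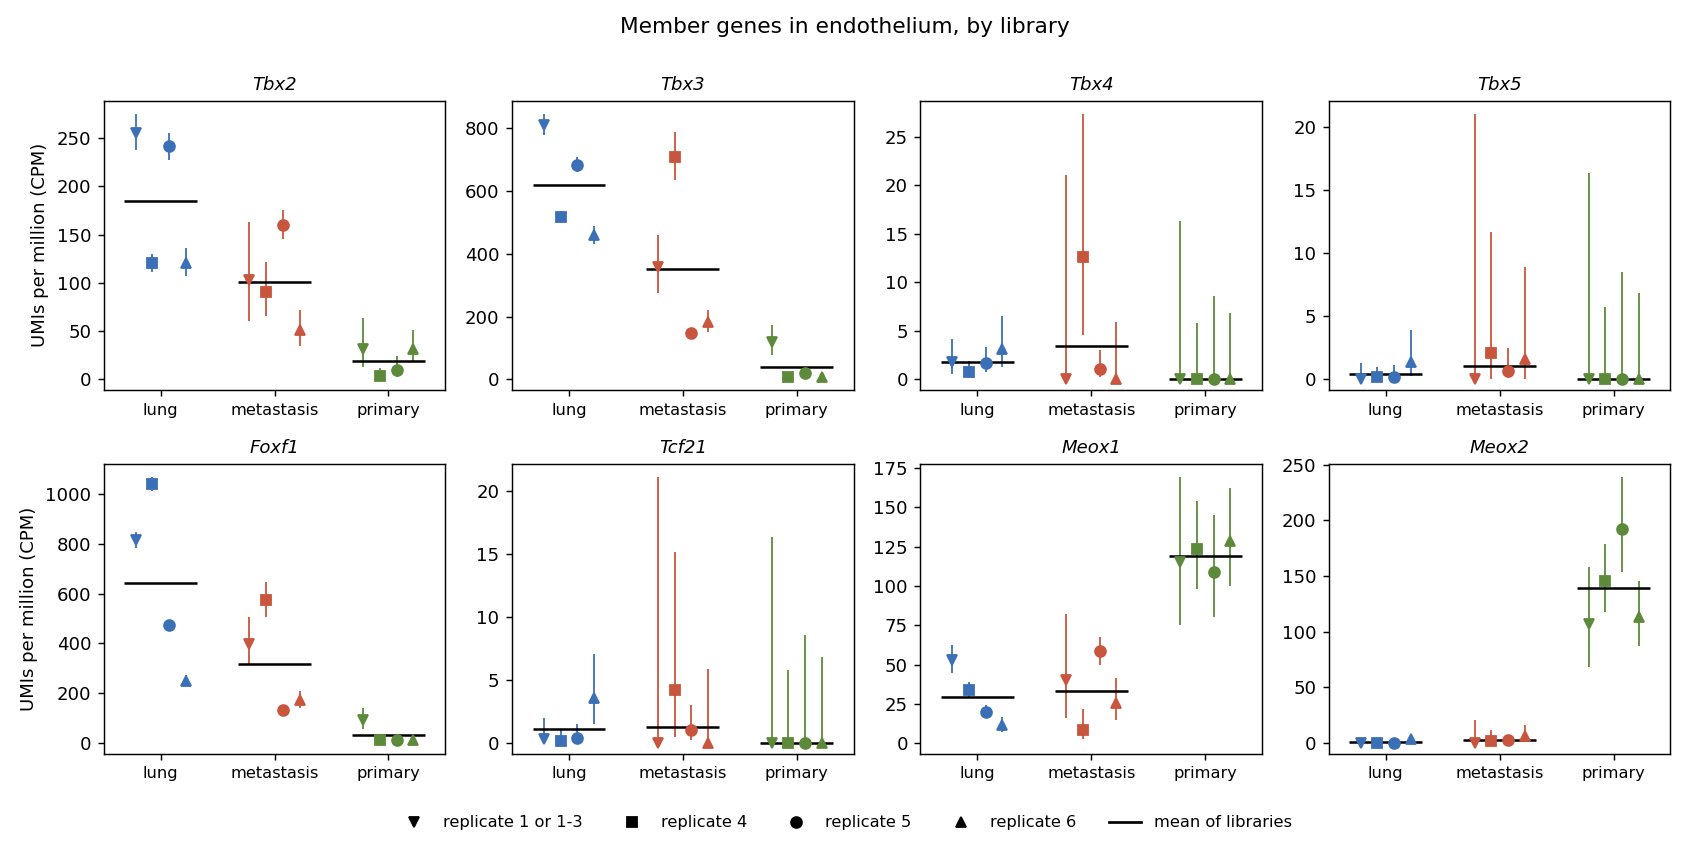
Level of the 8 genes in endothelium, in CPM, for the 4 libraries each of unchallenged lung, lung metastasis and primary tumor; points are libraries with 95% counting intervals and bars are the mean of libraries. Foxf1 and Tbx3 are at 250 to 1039 CPM in lung and at 7.45 to 120 CPM in primary tumors, and Meox2 is at 106 to 192 CPM in primary tumors and at most 6.38 CPM elsewhere. Tbx4, Tbx5 and Tcf21 are at 0 in primary tumors and reach at most 12.6, 2.10 and 4.19 CPM, each in a metastasis library.

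Stroma and endothelium were compared inside the 8 libraries that had at least 20 cells of both. Tbx4, Tbx5 and Tcf21 were higher in stroma and Foxf1 was higher in endothelium. These 4 of 8 genes passed (edgeR with the library as a block), against 27.3% of the 11582 genes tested. The log2 fold changes of stroma over endothelium were 5.62 ± 0.63 for Tbx4 (SE, adjusted p = 0.000289), 6.68 ± 0.80 for Tbx5 (adjusted p = 0.000415), 6.93 ± 1.31 for Tcf21 (adjusted p = 0.00840) and -3.33 ± 0.35 for Foxf1 (adjusted p = 7.882e-05). DESeq2 did not call Tcf21 (1.82, adjusted p = 0.581). The fit gives 1 effect over the tissues. In its primary tumor libraries Tcf21 was at 0 in both compartments. Tbx4 and Tbx5 were there at 1 and 3 UMIs in stroma and at 0 in endothelium. Tbx4, Tbx5 and Tcf21 passed the filter on low counts through stroma only, so they could only be called higher there.

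Tbx3 had -1.98 ± 0.76 and Tbx2 had 1.21 ± 0.46 on the same log2 scale (SE, edgeR adjusted p = 0.0777 for both). Meox1 had -1.58 ± 0.59 (adjusted p = 0.0693) and Meox2 had 2.11 ± 1.20 (adjusted p = 0.233). DESeq2 called Tbx2, Tbx3 and Meox1 in the same directions (adjusted p = 0.0134, 0.0268 and 0.00338).

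The difference between tissues was itself compared between the compartments. For primary tumor against unchallenged lung, 3 of the 8 genes passed, against 6.11% of the 11582 genes tested (edgeR interaction with the library as a block). The stroma effect minus the endothelium effect was 4.41 ± 0.58 for Tbx3 (log2, SE, adjusted p = 0.00200), which was lower in primary tumor endothelium and not called in stroma. The lung stroma level of Tbx3 was about that of lung Ptprc-positive cells, as given above, and the source of these UMIs was not tested. The difference was -7.30 ± 0.77 for Meox2 (adjusted p = 0.000595), which was higher in primary tumor endothelium and not called in stroma. It was 3.69 ± 0.79 for Meox1 (adjusted p = 0.0211), a call lost without primary tumor replicate 4, 5 or 6 or lung replicate 5 (adjusted p = 0.0550, 0.0628, 0.0545 and 0.112).

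For metastasis against primary tumor, 2 of the 8 genes passed this interaction test, against 0.958% of the 11582 genes tested. The difference was -5.12 ± 0.66 for Tbx3 (log2, SE, edgeR adjusted p = 0.00727), which was higher in metastasis endothelium and not in metastasis stroma. It was -3.64 ± 0.58 for Meox1 (adjusted p = 0.0212), which was lower by more in stroma than in endothelium. The Tbx3 call was lost without metastasis replicate 5 (adjusted p = 0.131). The Meox1 call was lost without metastasis replicate 5 or 6 (0.292 and 0.0747) or primary tumor replicate 4, 5 or 6 (0.0827, 0.0801 and 0.0709). Foxf1 and Tbx2, which were called in endothelium but not in stroma, did not pass this test (adjusted p = 0.302 and 0.461), and for Tbx4, Tbx5 and Tcf21 the low endothelial counts left no usable estimate.

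Stroma was split into a pericyte-like side with more Rgs5 than Col1a2 UMIs and a fibroblast-like side with the rest, in the 3 libraries that had 20 cells of either. Meox1 was at 0, 15.2 and 34.8 CPM on the Rgs5 side and at 4.83, 147 and 104 CPM on the Col1a2 side of metastasis replicate 5 and primary tumor replicates 4 and 6. It was lower on the Rgs5 side in both primary tumor libraries. In metastasis replicate 5 the Rgs5 side held 0 UMIs, which allows up to 13.2 CPM, so a difference was not detectable there. The log2 fold change was -2.48 ± 0.46 (SE, edgeR adjusted p = 0.0225), the single call among the 4 members tested, against 2.39% of 7370 genes. Without primary tumor replicate 4 it was -1.70 (adjusted p = 0.200), and without primary tumor replicate 6 it did not pass the filter on low counts and was not tested.

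Meox2 was at 17.6, 131 and 69.6 CPM on the Rgs5 side and at 11.6, 118 and 90.5 CPM on the Col1a2 side, so its paralog showed no such split (log2 fold change 0.12 ± 0.28, SE, edgeR adjusted p = 0.920). Tbx2 was at 185, 137 and 174 CPM on the Rgs5 side and at 158, 55.1 and 92.1 CPM on the Col1a2 side, higher on the Rgs5 side in each library. It did not pass (0.83 ± 0.27, SE, edgeR adjusted p = 0.225), and passed in 3 of 10 alternatives. These were without metastasis replicate 5 and with at least 50 cells, which drops that library too (1.18, adjusted p = 0.0346 for both), and the sum gate, which left it 9 Rgs5-side cells and so also dropped it (1.31, adjusted p = 0.00821).

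To see which stroma cells held the genes, cells of the sum gate that carried a UMI of 1 subset gene were pooled by tissue. These pools mix libraries and were compared with no test. In unchallenged lung, 92 cells with Npnt, a gene of alveolar fibroblasts, held Tcf21 at 507 CPM, Tbx4 at 223 CPM, Tbx5 at 161 CPM and Tbx2 at 526 CPM. The 122 lung cells with Pi16, a gene of adventitial fibroblasts, held Tcf21 at 71.0 CPM, Tbx4 at 14.6 CPM, Tbx5 at 56.4 CPM and Tbx2 at 18.8 CPM. Meox2 was alike in both, at 131 and 159 CPM.

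The lung libraries differed in this makeup. Npnt-gated cells made up 61.7% of the sum-gated stroma of lung replicate 4 and 19.6% and 21.4% of that of replicates 5 and 6. Replicate 4 was also the library with the highest Tbx2, Tbx4, Tbx5 and Tcf21 levels. The 20 lung cells with Hhip, a gene of peribronchial cells, held Tbx4 at 165 CPM, Tbx5 at 181 CPM and Tcf21 at 49.4 CPM.

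In metastases, 50 Npnt-gated cells held Tbx4 at 95.6 CPM (21 UMIs), Tbx5 at 45.5 CPM (10 UMIs), Tcf21 at 27.3 CPM (6 UMIs) and Meox2 at 86.5 CPM (19 UMIs). The 113 metastasis cells gated on Wt1, Msln or Upk3b, genes of mesothelium, held Tbx4 at 11.6 CPM (7 UMIs), Tcf21 at 1.65 CPM (1 UMI) and 0 UMIs of Meox1 and Meox2. They were 31.5% of the sum-gated metastasis stroma. The study lists Wt1 in the signature of its metastasis CAF (cancer-associated fibroblast) cluster, and this gate does not tell such cells from mesothelium. The Npnt-gated cells thus held higher Tbx4 and Meox2 levels in CPM than the mesothelial gate, and they also held the melanoma gene Dct at 4710 CPM, whose part was not tested. Another 11 metastasis cells with Hhip held Tbx4 at 203 CPM (7 UMIs) and no Tcf21.

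In primary tumors, 492 cells with Tnc, a matrix gene of activated fibroblasts, held Meox1 at 132 CPM (308 UMIs), Meox2 at 101 CPM (236 UMIs) and Tbx3 at 62.2 CPM (145 UMIs). The 177 Pi16-gated cells held 66.1, 60.5 and 12.7 CPM of the same genes. In contrast, Tbx4, Tbx5 and Tcf21 were at 1, 0 and 0 UMIs in the Tnc-gated cells. The 28 primary tumor cells with Npnt also held 0 UMIs of these 3 genes, with Tbx2 at 220 CPM.

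**Figure D4:**
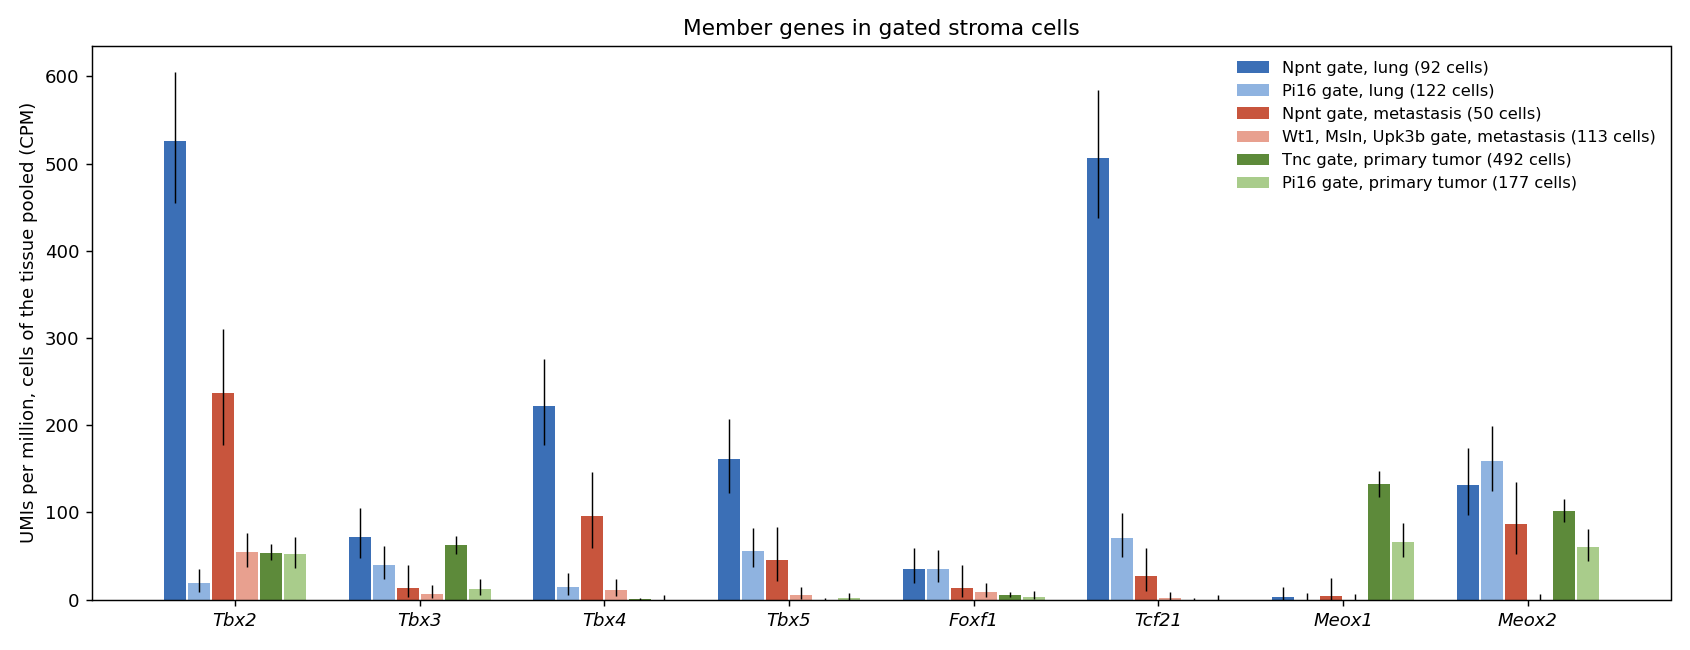
Level of the 8 genes in stroma cells of the sum gate that carry 1 subset gene, in CPM, pooled over the libraries of a tissue; bars are pooled CPM with 95% counting intervals, which leave out the spread between libraries. Npnt-gated lung cells hold Tcf21 at 507 CPM and Tbx4 at 223 CPM, the same gate in metastases holds 27.3 and 95.6 CPM, and Tnc-gated primary tumor cells hold Meox1 at 132 CPM.

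Of 12 other T-box genes in the table, 3 were tested in stroma. For primary tumor against unchallenged lung 2 were called higher and 0 lower, against 14.4% of all genes called. Tbx18, a factor of pericytes and of the somite and epicardium, had a log2 fold change of 2.79 ± 0.68 (SE, edgeR adjusted p = 0.0220). Tbx15, a factor of dermis and skeleton, had 118 UMIs in primary tumors and 0 in lung (edgeR adjusted p = 0.0154). With 0 UMIs in lung, Tbx15 did not pass the filter on low counts through lung, so it could only be called higher. None of the 3 was called for metastasis against either other tissue (median log2 fold change -2.56 against primary tumor and 0.24 against lung, the latter 0 with genes at 0 UMIs in 1 tissue set to their bound), and none of 2 tested was called in endothelium.

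Among 18 tested of 30 other mesenchyme transcription factors, 1 was higher and 3 were lower in metastasis than in primary tumor stroma (median log2 fold change -0.60, against 0.08 over all genes, of which 1.96% were called). Wt1, the factor of mesothelium and kidney, was at 38.7 to 138 CPM in metastases, 0.873 to 5.44 CPM in primary tumors and 0 to 13.3 CPM in lung (log2 fold change against primary tumor 5.47 ± 0.83, SE, edgeR adjusted p = 0.0157). Summed mesothelial markers were likewise higher in metastases (332 to 355 against 2.72 to 25.6 CPM). The study lists Wt1 among the signature genes of its metastasis CAF cluster. En1, a factor of dorsal dermis, was at 11.9 to 21.8 CPM in primary tumors and at 0 in metastases and lungs (edgeR adjusted p = 0.0417 against metastases). It passed the filter on low counts through primary tumors only, so it could only be called lower in metastases. Twist2 and Msx1 were the other 2 lower genes.

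Against lung, metastasis stroma had 1 of these 18 factors higher and 3 lower (median -0.43, against 7.46% of all genes called), among them Nr2f2, a nuclear receptor of vein and mesenchyme (-2.93 ± 0.43, SE, edgeR adjusted p = 0.00613), and Twist2 (-3.03 ± 0.67, adjusted p = 0.0265). Primary tumor stroma had 3 higher and 2 lower than lung (median 0.07, against 14.4% of all genes called). Twist1, a mesoderm factor, was at 35.7 to 74.2 CPM in primary tumors and 5.54 to 7.91 CPM in lung (3.21 ± 0.43, SE, adjusted p = 0.00206). Foxf2, the paralog of Foxf1, was lower in primary tumors (-4.78 ± 0.88, SE, adjusted p = 0.00687).

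Of 22 signals of lung mesenchyme, 18 were tested in stroma. Against unchallenged lung, 8 were lower and 0 higher in primary tumors (median log2 fold change -1.48, against 14.4% of all genes called), and 7 were lower and 0 higher in metastases (median -1.62, against 7.46%). Hhip, a Hedgehog inhibitor, was at 137 to 661 CPM in lung and 5.11 to 19.8 CPM in metastases (-4.68 ± 0.86, SE, edgeR adjusted p = 0.0157) and was also lower in primary tumors (-7.24 ± 0.88, adjusted p = 0.00136). Ptch1, the Hedgehog receptor and a target of the pathway, was lower in metastases (-2.09 ± 0.40, SE, adjusted p = 0.0164).

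Metastasis against primary tumor stroma had 2 of the 18 signals higher and 0 lower (median 0.31, against 1.96% of all genes called). Bmp4, a ligand of distal lung mesenchyme, was at 105 to 214 CPM in lung, 13.6 to 34.2 CPM in metastases and 0 to 3.04 CPM in primary tumors (log2 fold change of metastasis over primary tumor 3.70 ± 0.69, SE, edgeR adjusted p = 0.0320). Primary tumor over lung was -6.19 ± 0.67 (SE, adjusted p = 0.000985). This order of tissues was that of Tbx4 and Tbx5. Aldh1a2, an enzyme of retinoic acid synthesis that mesothelium also expresses, was at 49.2 to 54.5 CPM in metastases and 0 to 4.08 CPM in primary tumors (5.91 ± 1.14, SE, adjusted p = 0.0357).

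In endothelium, 6 of the other factors and 5 of the signals were tested. Nr2f2 was lower in metastases than in primary tumors (log2 fold change -2.21 ± 0.56, SE, edgeR adjusted p = 0.0344), the 1 call of 6 (5.9% of all genes were called). Foxc2, a factor of lymphatic and arterial endothelium, was higher in primary tumors than in lung (4.93 ± 0.85, SE, adjusted p = 0.00154), as were Prrx1 and Nr2f2, while Foxp1 was lower (18.5% of all genes were called). Axin2, a Wnt target, was the 1 signal called, higher in metastases than in primary tumors (3.48, adjusted p = 0.0316) and lower in primary tumors than in lung (-3.24, adjusted p = 0.0158).

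The genes whose profile was most like that of each member were sought over 35 profiles (libraries by stroma, endothelium, Ptprc-positive and Epcam-positive cells) and 12136 genes, by Pearson's r of log2(CPM + 1). The profiles share libraries and tissues, so r is a description. For Tbx4 they were Adra1a (0.955), C7 (0.94) and Prdm6 (0.935), with the members Tcf21 (0.93) and Tbx5 (0.929) close behind. For Tbx5 they were C7 (0.941), Slc38a5 (0.94) and Scube2 (0.937), and for Tcf21 Colq (0.957), Adra1a (0.952) and Slc7a10 (0.947).

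Foxf1 was most like Ripply3 (0.954), its genomic neighbor Fendrr (0.949) and Tmem100 (0.938). Tbx3 was most like Tmem100 (0.955), Fmo1 (0.946) and Pde3a (0.938), with Foxf1 at 0.913. Tmem100, a gene of lung endothelium, thus stood in both lists.

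Tbx2 was most like Lhfp (0.898), Pde5a (0.892) and Mapt (0.877), Meox1 like Lrrc32 (0.861), Pdia5 (0.854) and Zfp57 (0.841), and Meox2 like Ecm2 (0.933), Abcc9 (0.929) and Fxyd6 (0.917). Abcc9, a potassium channel subunit, is one of the pericyte markers.

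The genomic neighbors of the members were also read. Fendrr, a noncoding RNA 1276 bases from Foxf1, was at 139 to 405 CPM in lung endothelium, 156 to 560 CPM in metastasis endothelium and 1.57 to 48.8 CPM in primary tumor endothelium. In stroma it was at 20.8 to 47.5, 13.8 to 27.3 and 0 to 1.36 CPM. Its lung and metastasis ranges overlapped in stroma, whereas those of Foxf1 did not, and both genes were lowest in primary tumors. The Foxf1 level of lung stroma is not read as expression by the stroma, as given above. Gm43050, a noncoding RNA 748 bases from Tbx5, was at 18.0 to 55.4 CPM in lung stroma, 1.70 to 3.00 CPM in metastasis stroma and 0.25 to 1.36 CPM in primary tumor stroma, the order of Tbx5. Etv4, a factor downstream of growth factor signals that lies 92139 bases from Meox1, was at 40.2 to 51.9 CPM in primary tumor stroma, 8.51 to 20.1 CPM in metastases and 0 to 1.38 CPM in lung. These 3 were chosen after their values were seen. Of 15 neighbors within 100 kb that reached 10 CPM in a stroma library, 8 overlapped between lung and primary tumor stroma. Without overlap, 6 were higher in lung and 1 (Etv4) was lower. The share of all genes without overlap was not taken, so these counts are a description only. Among the 6, Bcas3os2, 1700021F13Rik and Sost were as low as 1.38 CPM in a lung library. Bcas3 was at 26.3 CPM or more in lung and at most at 26.2 CPM in primary tumors. Mthfsd, 3484 bases from Foxf1, was at 19.4 to 26.3 CPM in lung and 17.4 to 38.0 CPM in primary tumor stroma. Foxc2, 28027 bases from Foxf1, ran the other way in endothelium, at 0.45 to 0.84 CPM in lung and 17.2 to 27.8 CPM in primary tumors.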

How the data were processed

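Single-cell libraries (10x 3′ v3.1) were aligned and counted by the authors with Cell Ranger 6.1.1, with GRCm38 and mm10 named in the submitters' processing notes, and cells were filtered with Seurat 3.2.2. The deposited table used here holds raw UMI counts per gene and cell, not normalized. The normalized table deposited beside it was not used, and no doublet caller was run.

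The genes and gene lists were chosen with earlier results of these data known. Cells were gated by UMIs as the report states, and counts were summed per library. Identical libraries were counted once. The metadata place the primary tumors in skin although 1 label field reads lung. Library names were matched to the labels by tissue, sort and replicate number, except that unchallenged lung replicate 1 was the 1 lung name left over (numbered 2 in the metadata) and that metastasis MM replicates 5 and 6, primary tumor MM replicates 4 and 5 and primary tumor replicate 7 carry other numbers and were matched by mouse number or as the name left over.

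Sums from libraries with at least 20 cells were fitted with edgeR 4.0.16 in R 4.3.3 (TMM scaling, the filterByExpr filter on low counts and the quasi-likelihood F test, with Benjamini-Hochberg adjustment over all genes tested, and calls made at an adjusted p below 0.05). The 3 tissues were fitted together, and fits within libraries had the library as a block. The SE is the log2 fold change divided by the root of F. The script was tested on simulated counts. Replicates 5 and 6 of metastasis and primary tumor carry the same mouse numbers in the metadata, while the identical libraries named replicates 7 and 8 carry other numbers, so the mouse of each is uncertain. The mice of replicates 1-3 overlap and those of replicate 4 differ. The deviations of same-numbered metastasis and primary tumor sums correlated at -0.113 and -0.02 in stroma and at -0.055 to 0.175 in endothelium. The deviations of the 2 metastasis stroma libraries mirror each other, so the stroma values cannot show whether same-numbered sums vary together. Same-numbered metastasis and lung sums correlated at 0.106 and 0.219 in stroma (replicates 5 and 6). In endothelium they correlated at 0.4, -0.119 and 0.317 (replicates 4, 5 and 6). P-values cover the spread between these libraries.

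Alternatives were DESeq2 1.42.0, RLE size factors, no filter, at least 50 cells and run 3 of the metadata alone. Others were the replicate block, a stricter gate, the sum gate and each library left out. Shares of cells were taken after thinning to 1000 UMIs without replacement, leaving out shallower cells (307 of 1363 in primary tumor replicate 6, 50 of 367 in lung replicate 6 and at most 7 in the other stroma libraries). Counting intervals are exact at 95%. Genes named from the lists are the 2 with the smallest adjusted p in a comparison, or all called ones where few were called. For each member the 3 genes with the highest r among genes with a mean of at least 5 CPM are named.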

Additional observations from a re-analysis of the deposited data

Results flagged for a closer look

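In endothelium, 3 of 15 sets of 4 libraries had 1 library far from the others, where chance gives about 1 in 20. Foxf1 was at 93.2 CPM and Tbx3 at 120 CPM in primary tumor replicate 1-3, above the other 3 primary tumor libraries. That library had 43 endothelial cells, with none of the 7 epithelial markers detected and melanoma markers at 444 CPM. Meox2 was at 4.05 CPM in unchallenged lung replicate 6, above the other 3 lung libraries.

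The tissue effect differed between stroma and endothelium for Tbx3 and Meox1 in metastasis against primary tumor, by -5.12 and -3.64 on the log2 scale (stroma minus endothelium). It differed for Tbx3, Meox1 and Meox2 in primary tumor against unchallenged lung, by 4.41, 3.69 and -7.30. The lung stroma level of Tbx3 was about that of lung Ptprc-positive cells. Each of these UMI sources was not tested. Each was tested by the interaction term of edgeR with the library as a block, and the libraries that end a call are named in the report.

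Tbx2 was present in the MM libraries, which no comparison of the report uses. It was at 114 and 168 CPM in metastasis MM replicates 4 and 5 and at 170 and 279 CPM in primary tumor MM replicates 4 and 5. Unchallenged lung held it at 7.67 to 22.3 CPM in Ptprc-positive cells.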

How the results depend on the processing

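Under the alternatives, 132 of 163 counts of called members stayed within 1.5 times the main count, and 895 of 1002 log2 fold changes kept their direction and their side of the threshold. With 1 library left out, the count of called members ran from 0 to 4 in stroma for metastasis against primary tumor (main 4), 1 to 5 against unchallenged lung (main 5) and 5 to 6 for primary tumor against lung (main 5). In endothelium it ran from 1 to 5 (main 4), 0 to 1 (main 0) and stayed at 5. It was 4 to 5 between stroma and endothelium (main 4), 0 to 2 and 2 to 4 for the differences of the tissue effect in metastasis against primary tumor (main 2) and primary tumor against lung (main 3), and 0 to 2 between the Rgs5 and Col1a2 sides (main 1). The sum gate gave 3 for metastasis against lung in stroma, 4 and 5 for the differences of the tissue effect, and 2 for the sides. No filter gave 5 and 5 for the differences of the tissue effect, and DESeq2 gave 5 for the second. For the sides, at least 50 cells gave 2, and run 3 alone and no replicate block gave 0. No replicate block gave 1 for the difference in metastasis against primary tumor. The causes were not tested, and the counts of all genes called with 1 library left out are not given here.

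With the replicate block, Tbx3 in stroma of primary tumor against lung (-1.15, adjusted p = 0.0457) and Meox1 in endothelium of metastasis against primary tumor (-1.87, adjusted p = 0.0401) passed, and it changed no other call between tissues. All genes called for metastasis against primary tumor in stroma were 203 with edgeR, 470 with DESeq2, 1183 with no filter, 449 with at least 50 cells, 388 in run 3 and 372 with the block. For metastasis against lung they were 773 in stroma, 1183 with DESeq2, 2036 with no filter and 392 with the sum gate, and in endothelium 102, 214 with DESeq2, 169 with no filter, 10 with the stricter gate, 263 in run 3 and 177 with the sum gate. In endothelium for metastasis against primary tumor they were 509, 765 with DESeq2, 764 with the stricter gate, 125 in run 3 and 773 with the sum gate. For primary tumor against lung in stroma they were 1496, 2991 with no filter and 812 with the stricter gate. For the difference of the tissue effect in metastasis against primary tumor they were 111, 540 with no filter, 183 with at least 50 cells, 21 with no replicate block and 257 with the sum gate, and in primary tumor against lung 708, 1398 with no filter, 456 in run 3, 355 with no replicate block and 1086 with the sum gate. For the sides they were 176, 563 with no filter, 350 with at least 50 cells, 50 with no replicate block and 479 with the sum gate.

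The direction turned for values that were not called. Tbx2 in stroma of metastasis against lung was 0.14 with at least 50 cells and 0.079 in run 3, and ran from -1.175 to 0.14 with 1 library left out. So did Meox1 in the same comparison (-3.53 without metastasis replicate 5, to 5.56) and Meox2 in stroma of primary tumor against lung (-0.54 to 0.024, the latter without lung replicate 5). In endothelium of metastasis against lung, Meox1 was -0.33 with the stricter gate and -0.43 (without metastasis replicate 5) to 0.73 with 1 library left out, and Meox2 was -2.70 with the stricter gate. The difference of the tissue effect of Tbx5 in metastasis against primary tumor ran from -0.61 without metastasis replicate 5 to 1.25. Between the sides, Tbx3 was -0.10 in run 3 and -0.10 to 0.90 with 1 library left out, and Meox2 was -0.10 with no filter, -0.12 in run 3 and -0.12 to 0.26 with 1 left out. Thinning moved 41 of 48 shares by more than the spread between libraries. The stricter gate left no metastasis library with 20 stroma cells, so it gave no value for metastasis stroma or the sides. The metastasis stroma had 2 fitted libraries, with 3 UMIs each of Tbx4 and Tbx5 in replicate 6, which limits what its comparisons can show. Pooled ratios with each library left out were added after the data were seen.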

Other observations

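Metastasis libraries with too few stroma cells to be fitted also held UMIs of some of the genes. The 6 stroma cells of metastasis replicate 4 had 9 UMIs of Tbx4 (270 CPM), 5 of Tcf21 (150 CPM), 3 of Tbx5, 6 of Tbx2 and 2 of Meox2. They had 0 of Tbx3, Foxf1 and Meox1. The 4 stroma cells of metastasis replicate 1-3 had 2 UMIs of Tbx4 (90.0 CPM), 2 of Tbx5, 1 of Tcf21 and 3 of Meox2. They had 1 each of Tbx2 and Foxf1 and 0 of Tbx3 and Meox1. These sums rest on 22227 and 33351 UMIs in replicates 1-3 and 4, and were not tested.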
